A study of Homo sapiens with 36 samples.

Results

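The mitochondrial respiratory chain genes of the nucleus were examined for peaks of V5-tagged HIF-a protein in 786-O cells. The members were chosen by symbol from the GENCODE protein-coding genes on chromosomes 1 to 22 and X: all genes named NDUFA, NDUFB, NDUFC, NDUFS, NDUFV, UQCR, ATP5 or COX followed by a digit, with SDHA to SDHD and CYC1, and without NDUFA4L2, COX4I2 and the NDUFAF assembly factors. This gave 98 of 19970 genes. They comprised 38 genes of complex I (7 for core subunits and 31 for accessory subunits), 4 of complex II, 10 of complex III, 17 of complex IV, 9 complex IV assembly factors whose symbols begin with COX, and 20 of complex V. The prefix rule also brought in 5 tissue-restricted COX isoforms and 2 readthrough genes, ATP5MF-PTCD1 and NDUFC2-KCTD14, which share their start sites and therefore their peaks with ATP5MF and NDUFC2.

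The respiratory chain passes electrons from NADH (complex I) and succinate (complex II) through complex III and cytochrome c to oxygen at complex IV, and complex V uses the resulting proton gradient to make ATP. Most of its subunits are encoded in the nucleus, and their promoters are known for sites of NRF-1, of ETS factors such as GABP, and of YY1. HIF, a dimer of an oxygen-regulated a subunit and HIF-1b, binds the short hypoxia response element (HRE) and is known for raising glycolysis, with subunit exchange such as that of NDUFA4 for NDUFA4L2 among its described effects on the chain.

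The study used Cut&Run, in which an antibody directs a nuclease to cut out bound chromatin, to ask which part of HIF-a sets its preference for sites. 786-O is a clear cell renal carcinoma line that has lost VHL, so that HIF-2a is stable in normal oxygen, and that makes no functional HIF-1a. 6 lines were compared, each with 3 anti-V5 and 3 IgG libraries (36 samples). WT cells carried no tag. HIF-2a KIN was a single homozygous clone whose endogenous HIF-2a has V5 and HaloTag at its N-terminus. The other 4 lines expressed V5-Halo-tagged protein stably from an L30 promoter on top of the cells' own untagged HIF-2a: HIF-2a, HIF-1a, HIF-2a/1a (the N-terminal DNA-binding and dimerization part, here DBD, of HIF-2a with the C-terminal disordered region, IDR, of HIF-1a) and HIF-1a/2a (the reverse). Each anti-V5 library was deposited as its own list of peaks, called against the IgG library with the same line and number. A gene is said to be called in a library when a summit, the highest point of a peak, lay within 5 kb of its canonical start site, and occupied in a line when it was called in at least 2 of 3 libraries.

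The lists differed widely in length. The tagged ones held 3984 to 20808 peaks. In WT, replicate 2 held 9508 peaks against 392 and 743, and in the HIF-2a line replicate 2 held 20651 against 6590 and 5906, so the main results that rest on these libraries are given with and without them. Replicate 2 held the longest list in all 6 lines. Nothing in the labels says that the 3 replicates of a line came from separate cultures, and p-values measure the spread between these libraries only.

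To show what sequence lay under the peaks that recurred, the 101 bases centred on the summit with the highest fold are given for 6 members called in at least 11 of the 15 tagged libraries whose windows held no exon of a coding transcript, and a shorter stretch of 29 bases, which overlaps an exon, for NDUFS7, the member that differed most between the IDRs. Coordinates are GRCh38, each sequence runs 5′ to 3′ along its gene, and capitals mark an HRE core (ACGTG or GCGTG on either strand), the NRF-1 core GCATGCG, the ETS core CCGGAAG or the YY1 core AAGATGG on either strand. The 6 were picked by hand and include every member called this often that had an HRE core within 50 bp of its summit. They therefore do not give the share of recurring peaks with an HRE.
COX5A, chr15:74938177-74938277, minus strand: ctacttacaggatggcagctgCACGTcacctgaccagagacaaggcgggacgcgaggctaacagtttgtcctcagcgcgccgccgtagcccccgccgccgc
ATP5MC1, chr17:48892447-48892547, plus strand: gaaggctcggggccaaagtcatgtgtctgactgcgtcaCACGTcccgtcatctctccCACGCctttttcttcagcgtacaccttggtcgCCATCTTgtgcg
NDUFA11, chr19:5904429-5904529, minus strand: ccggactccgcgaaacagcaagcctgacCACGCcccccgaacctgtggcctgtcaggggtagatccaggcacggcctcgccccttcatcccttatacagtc
COX20, chr1:244834948-244835048, plus strand: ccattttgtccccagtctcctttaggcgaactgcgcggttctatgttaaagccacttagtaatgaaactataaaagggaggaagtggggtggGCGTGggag
ATP5F1B, chr12:56646132-56646232, minus strand: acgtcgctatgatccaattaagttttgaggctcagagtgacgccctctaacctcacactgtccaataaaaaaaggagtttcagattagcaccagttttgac
NDUFA6, chr22:42090898-42090998, minus strand: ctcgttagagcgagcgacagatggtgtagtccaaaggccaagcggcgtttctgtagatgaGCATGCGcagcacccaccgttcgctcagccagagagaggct
NDUFS7, chr19:1383825-1383853, plus strand: ccggtttcCGCATGCGctccgagccgctt
An HRE core lay 27 bp from the summit at COX5A, 9 bp at ATP5MC1, 20 bp at NDUFA11 and 44 bp at COX20, counted from the middle of the core. ATP5MC1 had a pair of HRE cores and a YY1 core, the NDUFA6 and NDUFS7 windows had an NRF-1 core and no HRE core, and the ATP5F1B window had none of these motifs. The start of SDHB is shown at greater length, because its summits lay at and beyond the upstream end of a promoter that holds an HRE, an NRF-1 and an ETS core 174, 200 and 128 bases before the RefSeq start. These are the 250 bases before that start.
SDHB promoter, chr1:17054033-17054282, minus strand: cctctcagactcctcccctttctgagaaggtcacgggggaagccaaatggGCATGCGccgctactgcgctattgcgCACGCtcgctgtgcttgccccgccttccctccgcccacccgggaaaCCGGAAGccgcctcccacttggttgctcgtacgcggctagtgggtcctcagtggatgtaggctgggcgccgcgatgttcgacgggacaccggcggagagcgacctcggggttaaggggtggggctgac

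Peaks were called near 64 of the 98 genes in at least 1 tagged library, and 34 had none, against 46.5% of all protein-coding genes with none. The median member was called in 2 of 15 tagged libraries and the median protein-coding gene in 1. The 34 without a peak included 5 of 5 tissue-restricted isoforms, 4 of 7 core subunits of complex I, SDHD, and ATP5F1A, ATP5F1C, ATP5MC3, ATP5MG, ATP5MJ, ATP5PB, ATP5PF, COX11, COX16 and COX17 as the first in symbol order. ATP5F1A encodes the alpha subunit of the catalytic head of ATP synthase and had no peak, while ATP5F1B, for the catalytic beta subunit beside it, was called in 12 tagged libraries.

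Peaks near members were rare in WT and most frequent in the HIF-1a line. In WT, 1.70% ± 2.95 (SD, n = 3 libraries) of members were called, all 5 of them in replicate 2 (ATP5F1B, ATP5F1E, NDUFA1, NDUFA6 and NDUFAB1) and 0 in the other WT libraries. The share was 10.9% ± 4.60 in HIF-2a KIN, 17.7% ± 15.7 in HIF-2a, 25.9% ± 3.28 in HIF-1a/2a, 33.0% ± 6.15 in HIF-2a/1a and 39.1% ± 2.57 in HIF-1a. Across all protein-coding genes the shares in the same order, beginning with WT, were 2.57%, 11.1%, 16.5%, 23.1%, 28.8% and 30.3%.

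**Figure D1:**
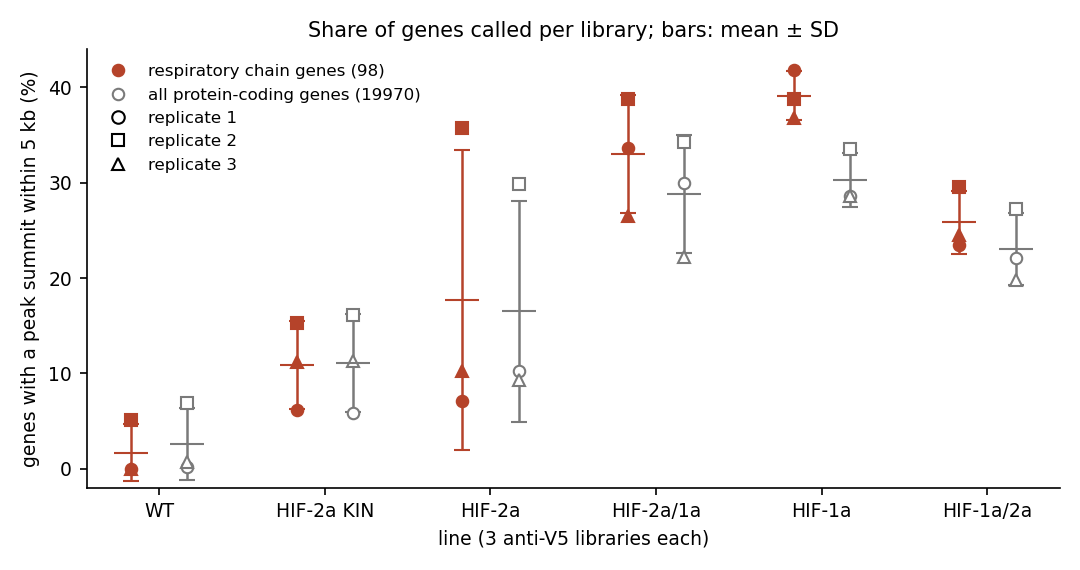
Percent of genes with a peak summit within 5 kb of the start site (y axis) in each of the 3 anti-V5 libraries of 6 lines (x axis), for the 98 respiratory chain genes (filled red) and all 19970 protein-coding genes (open grey); horizontal marks and bars are mean ± SD over 3 libraries. The members lie close to all genes in WT and HIF-2a KIN and reach their highest mean, 39.1%, in HIF-1a, where all genes average 30.3%.

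By library, the members' shares in HIF-1a were 41.8%, 38.8% and 36.7%, and the same libraries gave 28.6%, 33.5% and 28.6% over all genes. In HIF-2a they were 7.14%, 35.7% and 10.2%, of which only replicate 2 came near the HIF-1a libraries. No test was made of the members as a group.

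Counted as occupied, members numbered 0 in WT (0.411% of all genes), 8 in HIF-2a KIN (9.13%), 11 in HIF-2a (12.3%), 24 in HIF-1a/2a (21.2%), 34 in HIF-2a/1a (27.9%) and 38 in HIF-1a (29.3%). Without HIF-2a replicate 2, the members called in both other HIF-2a libraries numbered 5 (5.10% of the 98 members). As shares of the 98 members the counts were 0%, 8.16%, 11.2%, 24.5%, 34.7% and 38.8%. The list lengths moved with these counts: when each tagged list was cut to its 3984 strongest peaks, the length of the shortest, the occupied share was 6.12% in HIF-2a KIN, 4.08% in HIF-2a, 8.16% in HIF-2a/1a, 5.10% in HIF-1a and 4.08% in HIF-1a/2a. The occupied share of all genes was not computed at that length or without HIF-2a replicate 2.

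Other gene lists set beside the members spanned a wide range. Of 79 cytosolic ribosomal protein genes, another large set of highly transcribed housekeeping genes, 11.0% were called in HIF-2a KIN and 45.6% in HIF-1a. Of 35 further respiratory chain assembly factors, 17.1% and 47.6% were called in these lines. Of 9 lower glycolysis genes, which are textbook HIF targets, 96.3% were called in HIF-2a KIN and 100% in HIF-1a, and 8 were called in 15 of 15 tagged libraries. The peaks near members were also of middling height: the median rank of their strongest peak within its own list was the 47.4th percentile (26.3 to 67.0 over 15 tagged libraries), against 55.6 for peaks near all genes and 96.3 for lower glycolysis. The corresponding median fold enrichments were 7.14, 7.76 and 31.9. NDUFA4L2, the alternative to NDUFA4 that the rule leaves out, was called in 10 of 15 tagged libraries with 6.40-fold to 62.5-fold enrichment, in 0 of 3 HIF-2a KIN and 0 of 3 WT libraries, and COX4I2 was called in none.

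**Figure D2:**
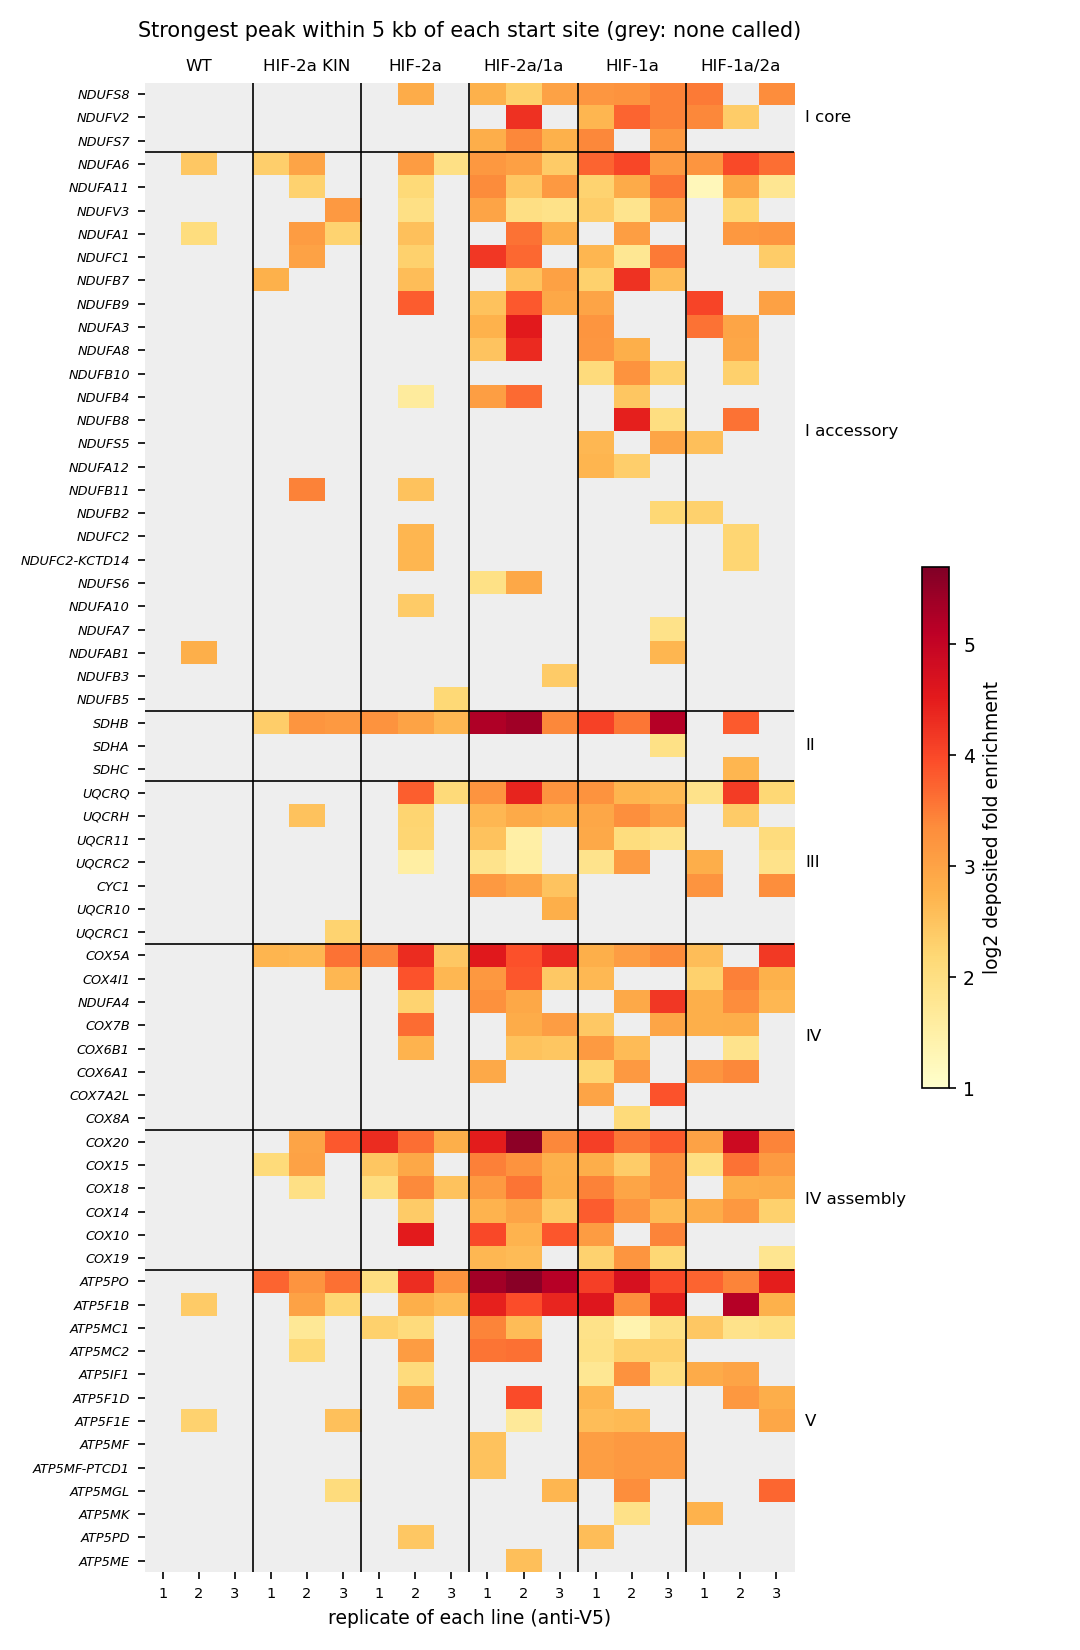
Strongest peak within 5 kb of the start site for the 64 members called in a tagged library (rows, grouped by complex) in 18 anti-V5 libraries (columns); colour is log2 of the deposited fold enrichment and grey means no peak. Rows such as ATP5PO, COX20, COX5A and SDHB are filled across most tagged libraries, while 22 members have peaks in 1 to 3 of them.

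The share of members with any peak ran from 8 of 17 in complex IV to 3 of 4 in complex II, and in HIF-1a the complex IV assembly factors had the highest share occupied. Over all protein-coding genes 53.5% were called in a tagged library, and the shares occupied in HIF-1a and HIF-2a KIN are those given above. Of complex I genes, 27 of 38 were called in a tagged library, 13 were occupied in HIF-1a and 2 in HIF-2a KIN (NDUFA1 and NDUFA6). Complex III had 7 of 10 called and complex V 13 of 20. Of the 9 assembly factors 6 were called, and the same number was occupied in HIF-1a and in HIF-2a/1a: COX10 and COX15, which make the heme A of complex IV, COX14, COX18 and COX20, which act on its mitochondrially encoded subunits, and COX19, a copper-handling protein. No test was made between complexes.

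The call rate against WT was compared gene by gene, over 15 tagged and 3 WT libraries. A gene could pass Fisher's exact test after Benjamini-Hochberg adjustment only when called in all tagged and no WT library, and 440 of 10917 genes did (4.03%). Among the 64 members tested, 1 passed. ATP5PO, which encodes the OSCP subunit in the stalk of ATP synthase, had a peak in 15 of 15 libraries with a tag and in 0 of 3 without (adjusted p = 0.0304). In HIF-2a replicate 1 that peak was a different one, inside the gene. A 1 kb window leaves it out, and ATP5PO was then called in 14 of 15 tagged libraries and did not pass. With the 5 kb window, the count of members that passed was 2 without HIF-2a KIN replicate 1 or without HIF-1a/2a replicate 2. It was 0 members and 0 genes without any 1 of the WT libraries. With WT replicate 2 left out the adjusted p of ATP5PO was 0.139, and with either of the other WT libraries left out it was 0.181 or 0.182. With the 15 tagged lists and that of WT replicate 2 cut to 3984 peaks it was 0.0502. At an unadjusted p under 0.05, 9 members passed (14.1% of the 64, against 18.1% of all genes): ATP5PO, COX20, COX5A, SDHB, COX15, COX18, UQCRQ, ATP5MC1 and NDUFA11. Only ATP5PO among the members was called in every tagged library, as were 2.96% of all genes.

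ATP5PO also had the strongest peaks of the set. Its fold enrichment over background was 13.2, 9.33 and 12.2 in HIF-2a KIN, 4.06, 19.7 and 9.49 in HIF-2a, and 40.9, 48.4 and 35.7 in HIF-2a/1a. In HIF-1a it was 17.0, 26.2 and 16.0, and in HIF-1a/2a 13.3, 10.8 and 22.3. The 3 HIF-2a/1a libraries were higher than the other 12. In 14 libraries the summits lay 148 to 191 bp upstream of the start site (chromosome 21, 33915804), in an exon of the untranslated region of an overlapping gene model, ENSG00000249209. In HIF-2a replicate 1, the lowest value, the peak was another one, 1137 bp inside the gene and with 5 fragments at its summit, so the upstream site was called in 14 of the 15.

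COX20 encodes a chaperone of the COX2 subunit of complex IV. It had no peak in WT or in HIF-2a KIN replicate 1, and 7.91-fold and 14.2-fold peaks in the other KIN libraries. In the 12 exogenous libraries its fold ran from 7.01 to 47.5, with a median percentile in the list of 76.8 over all tagged libraries, and the lines overlapped. Of its 14 summits, 12 lay within 300 bp of the one shown above.

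COX5A encodes a nuclear subunit of complex IV. Its peaks were 6.61-fold, 6.38-fold and 12.1-fold in HIF-2a KIN, 10.6-fold, 20.0-fold and 5.46-fold in HIF-2a, and 23.5-fold, 15.0-fold and 20.4-fold in HIF-2a/1a. In HIF-1a they were 6.98-fold, 8.48-fold and 10.2-fold, and in HIF-1a/2a 6.03-fold and 18.0-fold, with none called in replicate 2. All 14 summits fell within 109 bp of each other, next to the HRE core in the sequence above.

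Complex II, which is succinate dehydrogenase, had 1 gene that was called often. SDHB, for its iron-sulfur subunit, was called in 3 of 3 libraries of HIF-2a KIN (5.07-fold, 9.30-fold and 8.90-fold), HIF-2a (9.51-fold, 7.95-fold and 6.43-fold), HIF-2a/1a (37.7-fold, 41.8-fold and 10.5-fold) and HIF-1a (16.8-fold, 11.8-fold and 36.3-fold). In HIF-1a/2a it was called in replicate 2 alone, at 14.2-fold. The 13 summits spanned 101 bp, 208 to 309 bp upstream of the start site, so that all 13 lay upstream of the 3 motifs printed above. SDHA and SDHC were each called in 1 tagged library, with 3.87-fold in HIF-1a replicate 3 and 6.47-fold in HIF-1a/2a replicate 2, and SDHD in none.

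COX15, the heme A synthase, was called in 13 tagged libraries at 4.02-fold to 12.2-fold and in no WT library. Its strongest summit lay in an intron of the neighbouring gene CUTC, 220 bp from the start of CUTC and 327 bp from that of COX15. Together with ATP5PO, COX20, COX5A and SDHB it made up the 5 members occupied in HIF-2a KIN with no WT call. Of these, ATP5PO, COX5A and SDHB were called in 3 of 3 KIN and 0 of 3 WT libraries, or 3 of 98, where 3.09% of all genes met the same condition.

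**Figure D3:**
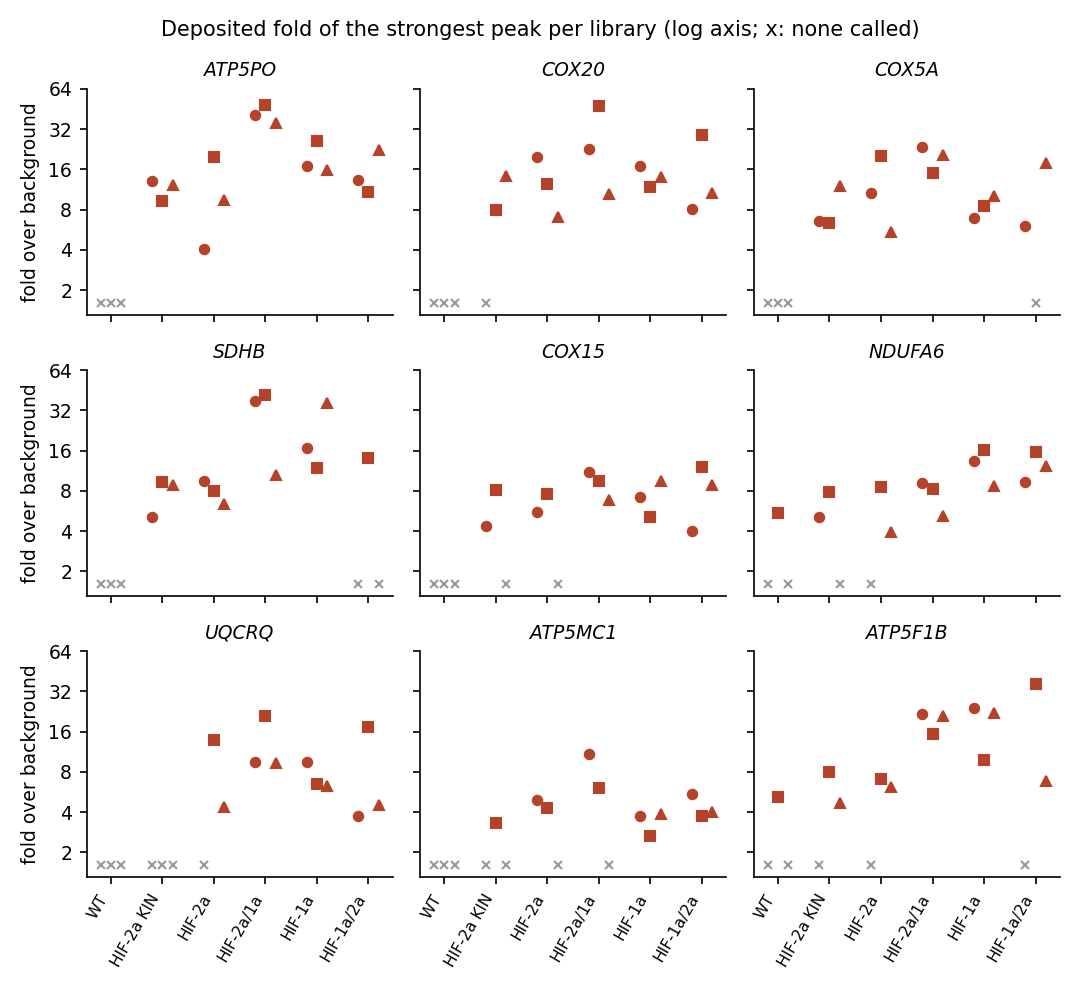
Deposited fold enrichment of the strongest peak (y axis, log scale) in every anti-V5 library of 6 lines (x axis) for 9 members; circles, squares and triangles are replicates 1, 2 and 3 and a grey x at the base marks a library with no peak. ATP5PO, COX20, COX5A, SDHB and COX15 have no WT peak, while NDUFA6 and ATP5F1B each have 1 in WT replicate 2.

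In complexes I and III the most often called genes were NDUFA6 and UQCRQ. NDUFA6, an accessory subunit, was called in 13 tagged libraries at 3.91-fold to 16.3-fold, but also in WT replicate 2 at 5.45-fold (adjusted p = 0.457). UQCRQ, a small subunit of complex III, was called in 11 of the 12 exogenous libraries at 3.73-fold to 21.1-fold and in 0 of 3 HIF-2a KIN libraries. CYC1, the cytochrome c1 of complex III, was called in both chimeras (8.90-fold, 7.76-fold and 5.61-fold in HIF-2a/1a, 9.37-fold and 10.0-fold in 2 of 3 HIF-1a/2a libraries) and in none of the HIF-2a KIN, HIF-2a and HIF-1a libraries. Occupied in all 4 exogenous lines were 9 members (9.18%, against 10.3% of all genes): ATP5F1B, ATP5MC1, ATP5PO, COX15, COX18, COX20, COX5A, NDUFA6 and UQCRQ.

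The next question was whether the IDR or the DBD went with the calls. With the HIF-2a IDR (6 libraries of HIF-2a and HIF-1a/2a) 21.8% ± 11.1 of members were called, and with the HIF-1a IDR (6 libraries of HIF-1a and HIF-2a/1a) 36.1% ± 5.39. The difference was -14.3 percentage points, and -9.75 over all genes. It was -16.7 points for the ribosomal protein genes, -21.9 for the further assembly factors and 0 for the lower glycolysis genes. For the members the groups of libraries overlapped, since HIF-2a replicate 2 reached 35.7% and HIF-2a/1a replicate 3 only 26.5%. Within replicates 1, 2 and 3 the difference was -22.4, -6.12 and -14.3 points and the groups did not overlap, without HIF-2a replicate 2 it was -17.1, and at 3984 peaks per list it was -2.55 points against -1.89 over all genes. The peak lists were longer in the lines with the HIF-1a IDR (12371 to 20808 peaks) than in those with the HIF-2a IDR (5906 to 20651), and the part of list length in the difference was not tested beyond this.

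By gene, 46 members were called in more libraries with the HIF-1a IDR, 8 in more with the HIF-2a IDR and 44 in equal numbers, 34 of these in none. All genes leaned the same way, with 34.4% called in more libraries with the HIF-1a IDR and 7.35% in more with the HIF-2a IDR. A gap of 3 or more libraries was seen for 13 members (13.3%), all toward the HIF-1a IDR, and for 9.16% of all genes toward the HIF-1a IDR and 0.185% toward the HIF-2a IDR. None passed Fisher's exact test after adjustment, and neither did any of the 10457 genes tested (0%, smallest adjusted p = 0.932). At an unadjusted p under 0.05, 1.61% of all genes were called more often with the HIF-1a IDR and 0.0191% with the HIF-2a IDR. NDUFS7 was the 1 member among them.

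NDUFS7 encodes the core subunit of complex I that carries its last iron-sulfur cluster. It was called in 3 of 3 HIF-2a/1a libraries (7.05-fold, 10.6-fold and 6.84-fold), in 2 of 3 HIF-1a libraries (10.6-fold and 9.08-fold) and in no other library, that is in 5 of 6 with the HIF-1a IDR and 0 of 6 with the HIF-2a IDR (exact p = 0.0152, adjusted p = 0.932). UQCRH, the hinge subunit of complex III, and NDUFV3 were each called in 6 against 2 libraries, and ATP5MC2, one of the genes for the c ring of ATP synthase, in 5 against 1. Without HIF-2a replicate 2, UQCRH, NDUFV3, ATP5MC2, NDUFB7 and COX10 also reached an unadjusted p of 0.0152 in Fisher's exact test, and no gene passed after adjustment. The IDR difference in share over all genes also widened then, from -9.75 to -11.8 points. How many of all genes reached that unadjusted p without this library was not counted. For UQCRH and NDUFV3 both calls with the HIF-2a IDR came from replicate 2 of HIF-2a and of HIF-1a/2a, the longest lists of these lines.

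**Figure D4:**
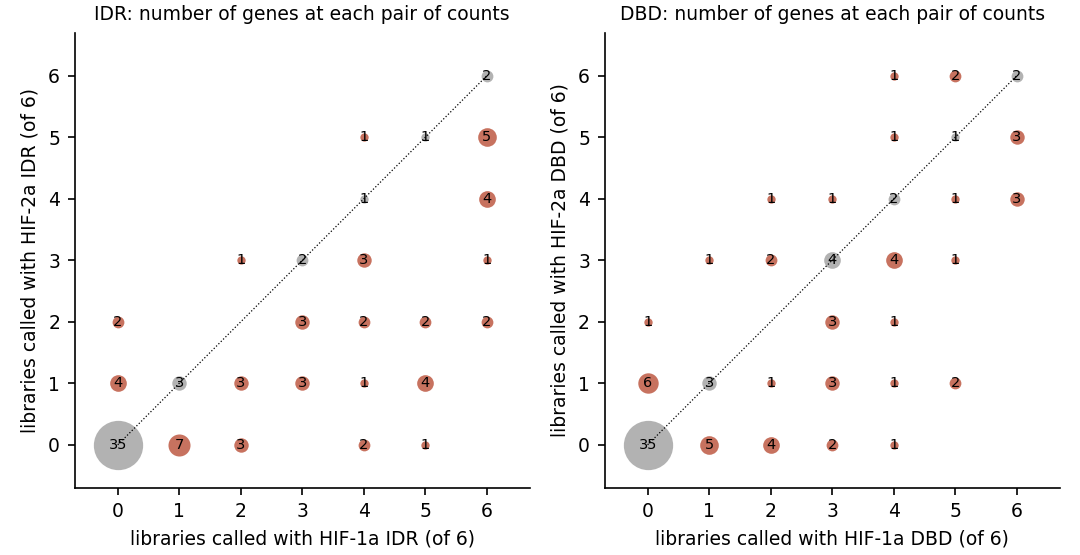
Number of libraries in which a member was called with the HIF-2a domain (y axis, of 6) against the HIF-1a domain (x axis, of 6), for the IDR on the left and the DBD on the right; the area of each disc and the figure in it give the number of members at that pair of counts, and the dotted line marks equal counts. For the IDR 46 members lie below the line and 8 above it, for the DBD 35 and 16.

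For the DBD the gap was smaller. With the HIF-2a DBD 25.3% ± 13.6 of members were called and with the HIF-1a DBD 32.5% ± 7.73, a difference of -7.14 points (-4.01 over all genes) that was -12.2, 3.06 and -12.2 within replicates 1, 2 and 3. It was -9.22 points without HIF-2a replicate 2, -3.50 without HIF-2a replicate 1, -4.12 without HIF-2a replicate 3, and -0.17 points at 3984 peaks per list, against -0.20 over all genes. More libraries with the HIF-1a DBD were called for 35 members (35.7%, against 25.9% of all genes) and more with the HIF-2a DBD for 16 (16.3%, against 12.8%). A gap of 3 or more was seen for 6 members toward HIF-1a and 0 toward HIF-2a, and for 3.47% and 0.761% of all genes. No member and none of the 10457 genes passed after adjustment (0%), and at an unadjusted p under 0.05 the counts were 0 members, 0.354% of all genes toward HIF-1a and 0.0574% toward HIF-2a. The widest gaps were those of NDUFB10, in 4 libraries of HIF-1a and HIF-1a/2a against 0, and of NDUFV2 and ATP5IF1, in 5 against 1. NDUFV2 is a core subunit of complex I and ATP5IF1 the inhibitor of ATP synthase hydrolysis.

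Set HIF-1a against HIF-2a directly, 5 members were called in 3 of 3 libraries of HIF-1a and 0 of 3 of HIF-2a: ATP5MF, ATP5MF-PTCD1, COX19, NDUFB10 and NDUFV2, where ATP5MF and its readthrough count 1 peak. Of all genes 2.35% met this condition. The reverse held for 0 members and 0.03% of all genes.

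Peak strength could be compared between domains for 1003 genes called in all 12 exogenous libraries, which included ATP5PO and COX20. In limma on log2 fold enrichment, centred on the median of each list, the difference by IDR was averaged over both DBDs. ATP5PO was lower with the HIF-2a IDR by a log2 difference of -1.22 ± 0.39 (SE, adjusted p = 0.0902), and the median of all 1003 genes was -0.41. Without HIF-2a replicate 1, whose ATP5PO peak was the one inside the gene, the difference was -0.92 (adjusted p = 0.283). Without HIF-2a replicate 2 it was -1.50 (adjusted p = 0.0124), and 122 of the genes then passed. With all 12 libraries, the ATP5PO difference by IDR on the HIF-2a DBD minus that on the HIF-1a DBD was -1.73 ± 0.79. Its unadjusted limma p was 0.0330 and its adjusted p 0.913, and 0 of the 1003 genes passed for this interaction. The HIF-2a replicate 1 value in it came from the peak inside the gene, so it does not compare the upstream site alone. The interaction is not given here without that library. For COX20 the IDR difference was -0.41 ± 0.41 (adjusted p = 0.576). By DBD the log2 differences were 0.21 for ATP5PO and 0.24 for COX20 (adjusted p = 0.906 and 0.895). Of the 1003 genes 2 passed for the IDR (0.199%) and 6 for the DBD (0.598%), and no member was among them. A fit with the replicate number as a block gave other counts and is described in the last section. When genes called in at least 8 of the 12 libraries were taken, 17 members entered, of which 15 had a negative IDR difference and 2 a positive one, with a median of -0.32 against -0.27 over 3510 genes. No member passed limma's test after adjustment, where 17 of the 3510 genes did for the IDR and 12 for the DBD. At an unadjusted p under 0.05 for the IDR there were 2 members, ATP5PO and SDHB. How many of the 3510 genes had a negative IDR difference or that unadjusted p was not counted.

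The summits near members sat at promoters. Taking for each gene the tagged library with the highest fold, 54 of the 64 summits (84.4%) lay within 1 kb of the start site, against 72.8% over all called genes, and the median distances were 182 and 270 bp. Upstream of the start lay 46 of the 64. Placed on the canonical transcripts of coding genes alone, 36 were outside all of them, 14 in an intron, 11 in a UTR and 3 in a coding exon. Some of the 36, such as that of NDUFS7, still lay within the span of the gene's other transcripts. The promoters were often shared: 25 of the 64 members (39.1%) had the start of another coding gene within 1 kb, against 19.6% of all called genes, and for 18 of the 64 (28.1%, against 14.4%) the summit was nearer to another gene's start. The 25 include ATP5MF, NDUFC2 and their readthrough genes, which count each other. They also include members such as NDUFA11 and NDUFB8, whose only such neighbour is an unnamed gene model. Both readthrough genes are among the 18 as well. Shares without such gene models were not computed. Among those named here, UQCRH is paired with LRRC41 at 82 bp, UQCRQ with GDF9 at 173 bp and COX15 with CUTC. A peak at such a site cannot be given to 1 of its genes, and with each peak counted only for the nearest start 28.6% of members were occupied in HIF-2a/1a and 30.6% in HIF-1a. The occupied share of all genes under that rule was not computed. Between tagged and WT libraries the difference in share called was then 19.5 points for members and 16.6 over all genes.

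An HRE core lay within 50 bp of 19 of the 64 summits (29.7%). Windows of the same length placed 1 kb to either side had one in 11.7%. Over all called genes the shares were 33.1% at the summits and 16.9% in such windows. The base composition of summits and of these windows was not compared. Of the 19 members called in at least 8 tagged libraries 6 had an HRE core at the summit (31.6%), where all genes called as often had 40.8%. By line, the share of member peaks with an HRE core was 34.1% ± 25.5 in HIF-2a KIN, 27.6% ± 7.19 in HIF-2a, 29.0% ± 9.37 in HIF-2a/1a, 23.5% ± 6.99 in HIF-1a and 37.6% ± 8.70 in HIF-1a/2a (SD, n = 3). Over all genes it ran from 37.5% to 39.9%. In HIF-2a, HIF-2a/1a and HIF-1a all 3 libraries were below the line's lowest library over all genes. In HIF-1a these were 19.5%, 31.6% and 19.4% against 37.0%, on 36 to 41 member peaks each, while in HIF-2a KIN the shares rest on 6, 15 and 11 peaks.

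**Figure D5:**
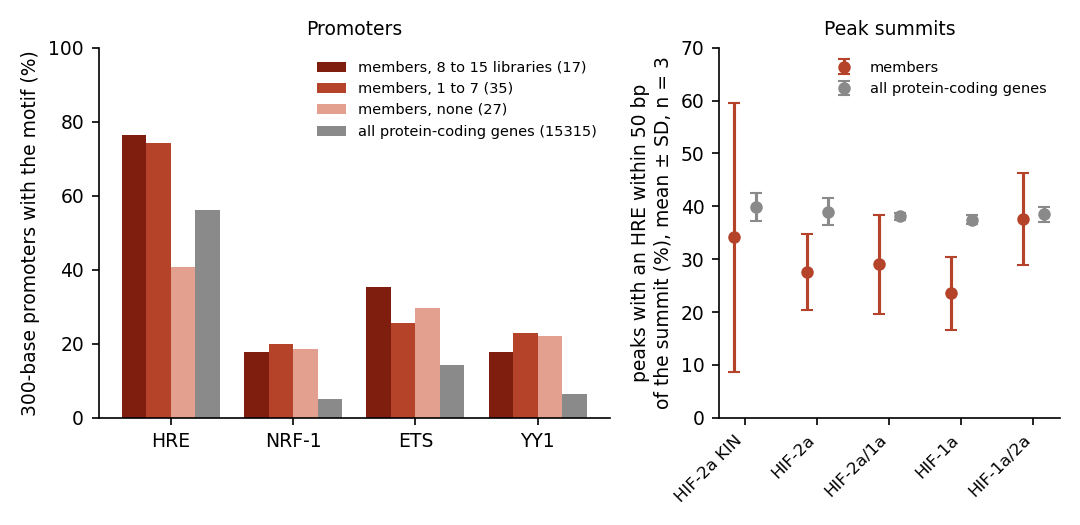
Left, percent of 300-base RefSeq promoters (y axis, bars from 0) with each motif for members called in 8 to 15, 1 to 7 or no tagged libraries and for all protein-coding genes, with the number of promoters in brackets. Right, percent of peaks with an HRE core within 50 bp of the summit, mean ± SD over 3 libraries, for members and all genes in the 5 tagged lines; the members' HRE share in promoters is 40.7% where no peak was called and 76.5% in the most often called group, while NRF-1 stays between 17.6% and 20.0%.

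RefSeq promoters (250 bases before to 50 after the start, GRCh38.p14) were at hand for 79 members and 15315 protein-coding genes. An HRE core was found in 63.3% of the members' promoters and 56.2% of all, NRF-1 in 19.0% and 5.13%, ETS in 29.1% and 14.4%, and YY1 in 21.5% and 6.43%. The HRE share differed with the number of tagged libraries called: 40.7% of 27 promoters of members without a peak, 74.3% of 35 called in 1 to 7 libraries and 76.5% of 17 called in 8 to 15. Over all genes the same classes gave 46.0%, 60.4% and 71.6%. Median GC content moved with the classes, at 56.3%, 62.0% and 62.7% for members and 58.3%, 65.0% and 66.7% for all genes, and since the HRE core holds a CpG its part in these shares was not tested. The NRF-1 core was in 18.5%, 20.0% and 17.6% of the members' promoters in the same order.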

How the data were processed

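Cut&Run libraries of 18 anti-V5 and 18 IgG samples were processed by the authors. Reads were aligned to hg38 with Bowtie2 2.3.4.1 in local mode, fragments of 10 to 700 bp were kept, files were handled with SAMtools 1.8 and Sambamba, and peaks of each anti-V5 library were called singly with MACS2 at q 0.01 (maximum gap 400 bp, duplicates kept) with the mouse IgG library of its own line and number as control, as the labels pair them. Regions on a blacklist were taken out with bedtools 2.28.0. Replicates were not pooled. For each peak the authors deposited the fold enrichment at the summit, a ratio of fragments to the local background with 1 added to both. The deposited −log10 p and −log10 q were used for a stricter threshold and to cut lists to equal length. No IgG counts or signal tracks were used here. Whole fragments at each summit were worked out from the fold and p of its peak, and the lowest background in a list, a measure of its depth, was 0.241 to 0.625 fragments per base.

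Summits were assigned to canonical starts of protein-coding genes in GENCODE release 44 (GRCh38), and the strongest peak within 5 kb by fold stood for the gene. Library calls were compared by two-sided Fisher's exact tests per gene with Benjamini-Hochberg adjustment over all genes called in at least 1 library compared, and log2 fold enrichment with limma 3.58.1 (R 4.3.3) in a model of 1 mean per line, adjusted over all genes fitted. Python 3.11.15 with SciPy 1.17.1 was used. The tests and the fragment solution were tested on simulated data. Motif letters, neighbours and positions were read from the reference.

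Genes were named by rule: members occupied in HIF-2a KIN and never called in WT, the member most often called in each complex, those with the widest IDR and DBD gaps of at least 3 libraries, the SDH genes and CYC1, and the first 10 without a peak; others named were chosen after their values were seen. The members and lists were chosen with earlier results of these data known.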

Additional observations from a re-analysis of the deposited data

How the results depend on the processing

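With the 3984 strongest peaks of each tagged list and of WT replicate 2, the occupied share of members was 4.08% in HIF-2a, 8.16% in HIF-2a/1a, 5.10% in HIF-1a and 4.08% in HIF-1a/2a. The difference in share called was then 5.51 points between tagged and WT libraries (5.74 over all genes), -2.55 points between the IDRs and -0.17 points between the DBDs. In HIF-1a the occupied share was 33.7% in a 1 kb window, 42.9% in a 10 kb window, 31.6% at a −log10 q of at least 5 and 30.6% when a peak counted only for its nearest start, and in HIF-1a/2a it was 28.6% in a 10 kb window. With 1 library left out and both others required, the range was 3.06% to 6.12% in HIF-2a KIN, 5.10% to 9.18% in HIF-2a, 19.4% to 30.6% in HIF-2a/1a, 27.6% to 31.6% in HIF-1a and 14.3% to 15.3% in HIF-1a/2a. Occupied shares of all genes under these settings were not computed.

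Members past the test against WT numbered 0 in a 1 kb window, 0 at the stricter q, 0 at equal list lengths and 0 to 2 with 1 library left out. The adjusted p of ATP5PO was 0.0750, 0.0664 and 0.0502 under the first 3. Gene by gene, same-numbered libraries of different lines deviated together little (correlations of -0.018 to 0.172, median 0.030). For libraries with different numbers the correlations were -0.201 to 0.158, with a median of -0.019. The numbers were not taken as pairs, although replicate 2 held the longest list in every line. With the number as a replicate block, 0 members and 0 genes passed against WT (smallest adjusted p = 0.115), and limma called 82 genes for the IDR, 1 of them a member (ATP5PO, adjusted p = 0.0163), and 41 for the DBD. With 1 library left out, the DBD difference in share was -9.83 to -3.50 points, and limma called 0 to 1 members for the IDR. Over all genes the 2 IDR calls became 8 at the stricter q, 12 without centring, 17 over genes called in 8 of 12 libraries and 0 at 1 kb or equal list lengths, and the 6 DBD calls became 12 over genes in 8 of 12 and 3 at 1 kb. Leaving out 1 library gave 0 to 122 IDR and 3 to 21 DBD calls. The DBD difference ran from -0.073 (without HIF-2a replicate 2) to 0.51 for ATP5PO and from -0.011 (without HIF-2a/1a replicate 2) to 0.52 for COX20. The cause was not tested. Peak lists hold no value below the calling threshold, so a member without a peak has no measured level.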
